A study of Homo sapiens with 4 samples.

Results

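The 34 genes described here carry DNA damage checkpoint signals: the kinases ATM and ATR with their activators, the sensors and adaptors at replication forks, the effector kinases, the chromatin and ubiquitin factors at DNA breaks, and the CDC25 phosphatases and WEE1-type kinases that set the activity of cyclin-dependent kinases. They were taken by symbol from a list of checkpoint kinase signalling, fork sensor, damage ubiquitin ligase and cell cycle effector genes, with no measured value in the rule, and each symbol was matched to its Ensembl identifier in a count table of 60880 genes. All 34 had enough reads to be tested, among 15626 genes tested in all.

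ATM responds to DNA breaks and ATR to stretches of exposed DNA bound by RPA at stalled forks, and both pass the signal on by phosphorylating effector kinases. The effector kinases CHEK1 and CHEK2 inhibit the CDC25 phosphatases, while WEE1 and PKMYT1 place inhibitory phosphates on CDK1 that the CDC25 enzymes remove. The inhibitory phosphorylation of CDK1 therefore depends on the balance of the 2 opposed enzyme families. Many of the genes concerned are transcribed periodically in the cell cycle.

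RNA-Seq was done on LNCaP95, cells derived from the LNCaP line of prostate cancer by long growth without androgen, and on LN95(KO), LNCaP95 cells in which UGT2B17 was knocked out with CRISPR vectors. UGT2B17 is a glucuronosyltransferase that inactivates androgens. Each group had 2 libraries (replicates 1 and 2 for LNCaP95, replicates 3 and 4 for LN95(KO)), all from untreated cells kept in charcoal-stripped serum, which is low in steroid hormones. The comparison asks how RNA levels differ between knockout cells and their parental cells. The labels give LN95 as the cell line throughout, the series text calls the knockout line an LNCaP line, and neither the number of knockout clones nor whether the libraries came from separate cultures was stated, so p-values measure the spread between these libraries.

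Libraries held 17330338 to 18813193 gene reads, so that a count of 0 allows up to 0.163 to 0.170 CPM (3 counts per library, counting error only; CPM is counts scaled to library size with TMM factors). The knockout gene UGT2B17 was counted 2788 and 2748 times in LNCaP95 but 21 and 20 times in LN95(KO), a level that fell by 7.04 on the log2 scale (SE 0.10, adjusted p 1.18e-18, Benjamini-Hochberg adjustment of the quasi-likelihood test of edgeR). All 9 luminal prostate markers were expressed, with a summed level of 3030 and 3036 CPM in LNCaP95 and 3826 and 3657 CPM in LN95(KO). Of the other lists, 4 neuroendocrine markers summed to 49.8 and 48.0 CPM against 15.0 and 14.2 CPM, with CHGA at 0 throughout. That difference lay in ENO2 (47.4 and 45.6 against 12.6 and 11.9 CPM), while SYP had a log2 fold change of -0.05 and INSM1 at most 1 count. The 4 fibroblast markers summed to 30.0 and 29.5 CPM against 34.5 and 32.1 CPM, with DCN at 0. Most of that sum was COL1A1 (28.4 and 28.4 against 34.2 and 31.8 CPM), and LUM had 24 and 19 counts against 0 and 0. Basal, leukocyte and endothelial markers summed to at most 3.18 CPM in any library. Reads that did not align were 3.85% and 3.96% of entries in LNCaP95 but 8.05% and 7.71% in LN95(KO), and the part of these marker and alignment differences in the results below was not tested.

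The checkpoint genes were mostly higher in LN95(KO), and the differences were uneven along the pathway. All 5 genes of the last step, CDC25A, CDC25B, CDC25C, WEE1 and PKMYT1, rose by 2.53-fold to 12.4-fold, and so did the effector kinases CHEK1 and CHEK2 (3.58-fold and 3.60-fold), the histone variant H2AX (3.81-fold), and the fork factors CLSPN (7.44-fold) and TIMELESS (3.04-fold). The apical kinases ATM and ATR stood at 1.07-fold each, with no call. With a call defined as an adjusted p under 0.05 and a fold over 2, 12 of 34 members (35.3%) were called higher, where 8.86% of all genes tested were. DESeq2 also called 12 higher (6.34% of all genes), and 11 passed glmTreat, the test against a 2-fold change itself (5.41% of all genes). In the other direction 0 members were called by edgeR, where 9.13% of all genes were, and 0 by DESeq2, where 6.61% were. The 2 members with an unadjusted p under 0.05 for a lower level were KAT5 and SHLD1.

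At an adjusted p under 0.05 with no fold criterion, 24 members rose, 2 fell and 8 did not pass, where 29.8% of all genes rose and 30.1% fell. Of these 26 members, 20 also passed in DESeq2 (all higher, where 18.4% of all genes were) and in each of the 4 omissions of a library. The 6 that did not, by either measure, are ATRIP, KAT5, TIPIN, SHLD1, SHLD2 and RNF168, all within 1.62-fold. The median log2 fold change over the members was 0.43 (range -0.69 to 3.63), and over all genes tested it was -0.008. In CPM, both LN95(KO) libraries lay above both LNCaP95 libraries for 26 members, below them for 2, and overlapped them for 6, where 39.8% of all genes lay above and 39.9% below. With 2 libraries against 2, the smallest 2-sided permutation p is 0.333, so calls rest on the spread that edgeR shares across genes (a biological coefficient of variation of 4.27%). In bulk RNA, fewer cells of a type and less RNA per cell cannot be told apart.

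**Figure D1:**
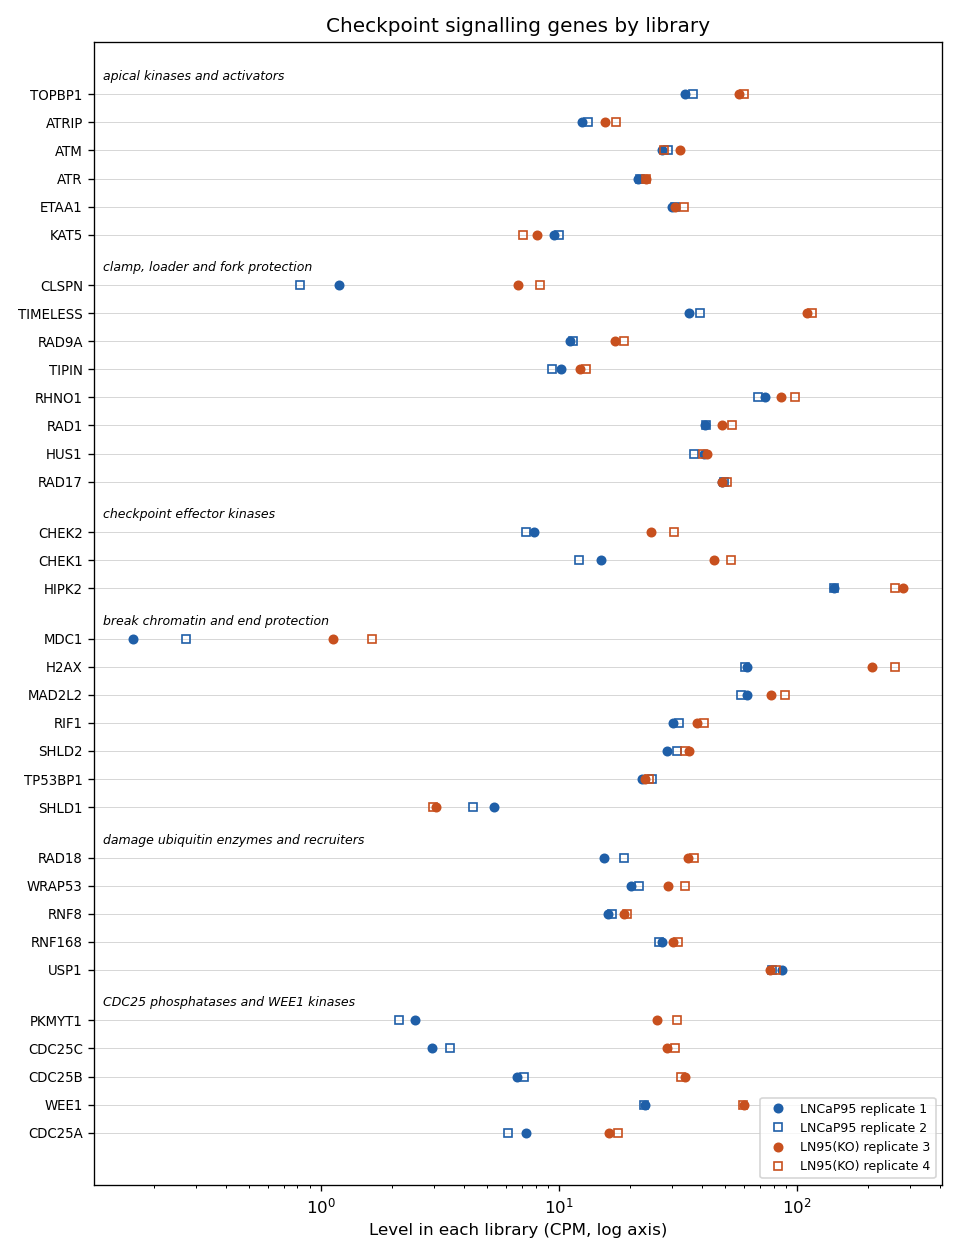
Level of each of the 34 checkpoint genes (rows, by role) in CPM on a log axis, with 1 symbol per library: filled and open blue for LNCaP95 replicates 1 and 2, filled and open orange for LN95(KO) replicates 3 and 4. The orange symbols lie to the right of the blue ones for 26 genes and to the left for KAT5 and SHLD1, and the gap is wide for all 5 CDC25 and WEE1-type genes at the bottom.

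**Figure D2:**
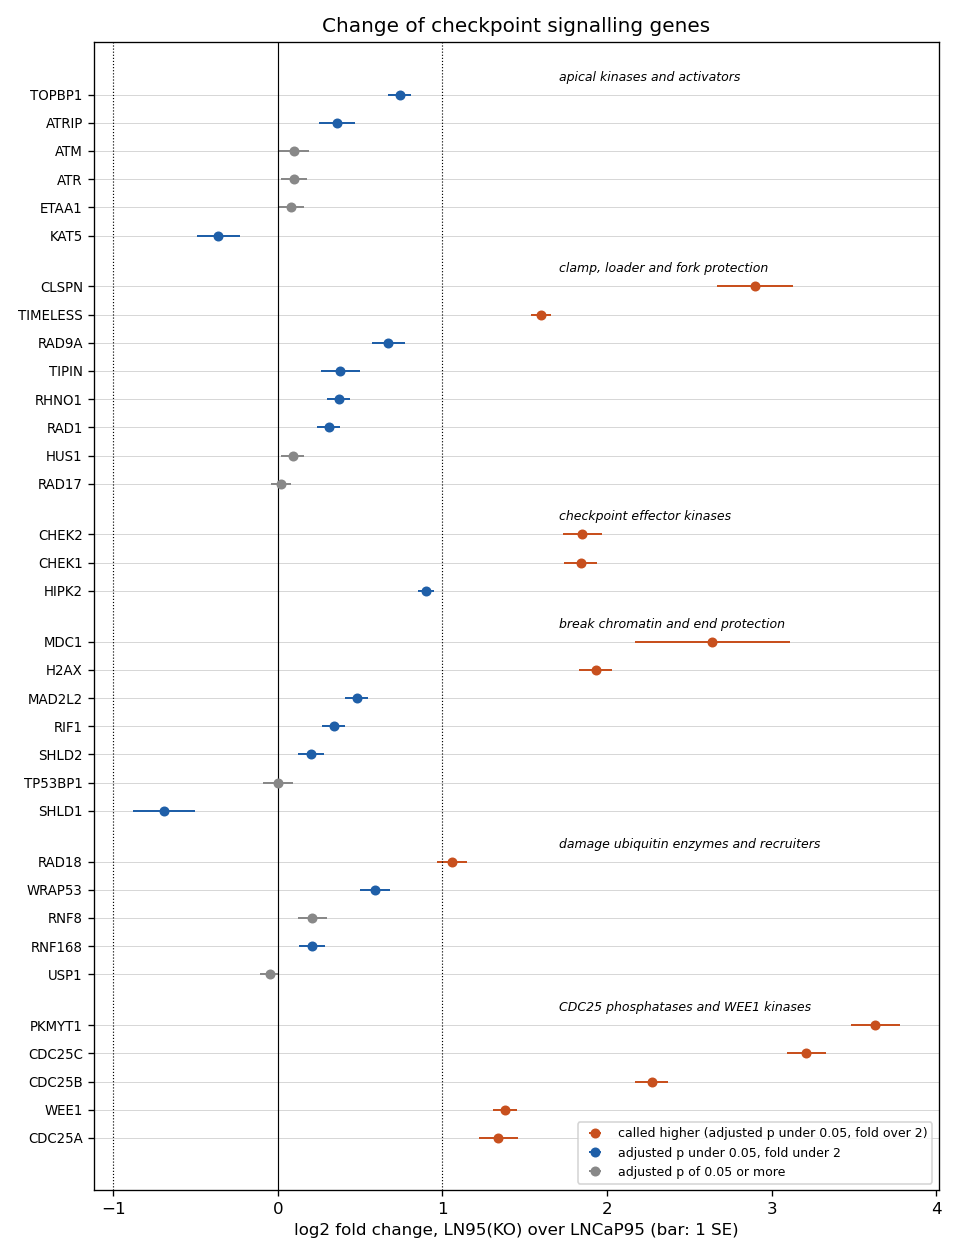
Log2 fold change of LN95(KO) over LNCaP95 for each checkpoint gene, with bars of 1 standard error and dotted lines at a 2-fold change. Orange points are the 12 genes called higher, blue points passed an adjusted p of 0.05 short of a 2-fold change, and grey points are the 8 that did not pass.

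**Figure D3:**
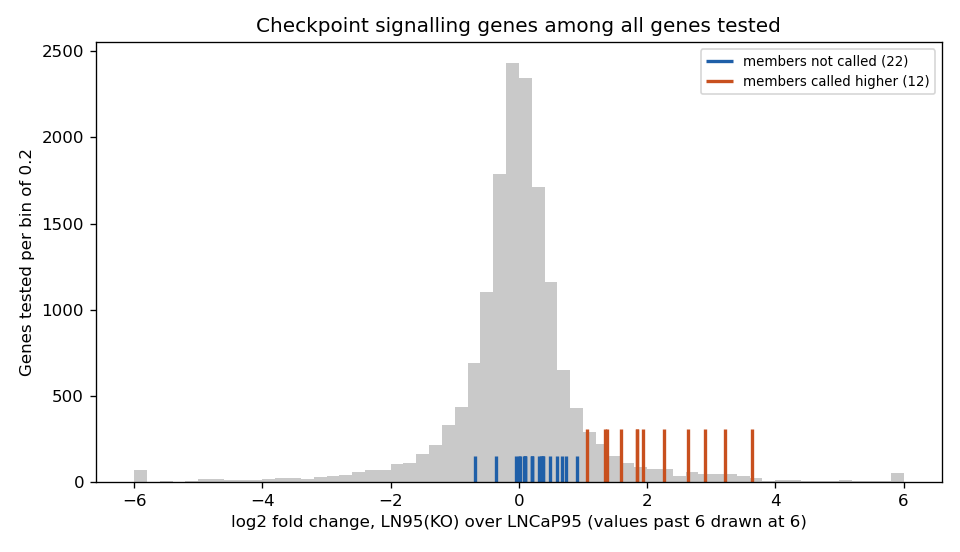
Histogram of log2 fold changes of the 15626 genes tested (grey, bins of 0.2, values beyond 6 drawn at the ends), with the checkpoint genes as ticks. The 12 orange ticks (called higher) lie between 1.06 and 3.63, and the 22 blue ticks lie between -0.69 and 0.90.

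Cell cycle genes rose in the same libraries. Of the S phase list distributed with Seurat, 27 of 42 genes tested (64.3%) were called higher, where 8.86% of all genes were. Their median log2 fold change was 1.35, and the summed level of the list was 867 and 819 CPM in LNCaP95 and 1652 and 1976 CPM in LN95(KO). Of the 54 genes on the G2/M list, 46 (85.2%) were called higher (median 2.76), and the sum went from 1606 and 1573 CPM to 4523 and 5224 CPM. CLSPN, TIPIN and USP1 are on the S phase list and CDC25C is on the G2/M list. Without these 4, 10 of the remaining 30 members (33.3%, against 8.86% of all genes) were called higher and their median was 0.43. How much of the checkpoint genes' difference goes with the share of cells in each phase was not tested.

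Among the apical kinases and their activators, 2 of 6 genes rose at an adjusted p under 0.05, 1 fell and 3 did not pass, and 0 of 6 crossed the 2-fold line. Over all genes tested, 29.8% rose, 30.1% fell and 8.86% were called higher, so counts in a group of 6 are near the background. TOPBP1, which binds the checkpoint clamp and switches ATR on, had 624 and 674 counts in LNCaP95 against 1017 and 1099 in LN95(KO). Both knockout libraries were thus well above both parental ones, a 1.67-fold difference (log2 fold change 0.74, SE 0.07, adjusted p 6.99e-08, edgeR). ATRIP, the partner that brings ATR to RPA-coated DNA, had 233 and 243 counts against 276 and 320 (1.28-fold, adjusted p 0.00758, or 0.069 without LNCaP95 replicate 1, 0.0613 without LN95(KO) replicate 4 and 0.124 in DESeq2). ATRIP shares 26.7% of its exon bases with other genes. TREX1 shares the most of them, with 0 reads assigned in all 4 libraries, and reads in the shared bases were left out of the counts.

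The kinases themselves were not called. ATM had 501 and 526 counts in LNCaP95 against 573 and 505 in LN95(KO), and the groups overlapped in CPM (27.1 and 28.7 against 32.4 and 27.7). Its adjusted p was 0.32 with all libraries and 0.0448 without LN95(KO) replicate 4. ATR had 398 and 401 counts against 412 and 425, a log2 fold change of 0.10 (SE 0.08, edgeR adjusted p 0.326). ETAA1, an ATR activator that binds RPA directly, had a log2 fold change of 0.08 (SE 0.08) with overlapping groups. KAT5, the acetyltransferase that acetylates ATM during its activation, fell from 177 and 184 counts to 144 and 130, a 1.29-fold lower level (log2 fold change -0.36, SE 0.13, adjusted p 0.0247). Of the exon bases of KAT5, 38.6% lie under other genes. RNASEH2C, which shares the most, had a log2 fold change of -0.08. The adjusted p of KAT5 was 0.064 without LNCaP95 replicate 1, 0.135 without LNCaP95 replicate 2, 0.136 without LN95(KO) replicate 4 and 0.235 in DESeq2.

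The clamp, its loader and the fork protection factors split into 2 called genes (25.0%, against 8.86% of all genes) and 6 that stayed under 2-fold. CLSPN (claspin, chromosome 1, 36185819 to 36235579, minus strand, on GRCh37 as for all genes here), the adaptor on which ATR phosphorylates CHEK1, had 22 and 15 counts in LNCaP95 against 119 and 152 in LN95(KO). Its level went from 1.01 ± 0.264 CPM to 7.53 ± 1.14 CPM (SD, n = 2 libraries per group), a log2 fold change of 2.90 (SE 0.23, edgeR adjusted p 7.54e-09), and the low parental count makes it less precise than the other fork genes. TIMELESS (chromosome 12, 56810147 to 56843210, minus strand), which holds the helicase and polymerase together at the fork, had 654 and 716 counts against 1946 and 2126. Its groups were far apart at 37.3 ± 2.59 CPM and 113 ± 4.63 CPM (log2 fold change 1.60, SE 0.06, edgeR adjusted p 9.31e-13). TIPIN, the obligate partner of TIMELESS, had 188 and 171 counts against 218 and 238, a 1.30-fold difference (adjusted p 0.01, or 0.104 without LNCaP95 replicate 2 and 0.154 in DESeq2). Whether the 2 subunits differ in their change was not tested.

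The ring-shaped checkpoint clamp is built from RAD9A, RAD1 and HUS1. RAD9A had 207 and 211 counts against 306 and 343 and rose 1.59-fold (log2 fold change 0.67, SE 0.10, adjusted p 2.81e-05). RAD1 rose 1.24-fold from 759 and 762 counts to 861 and 979, while HUS1 had 752 and 678 counts against 745 and 739, overlapping groups and a log2 fold change of 0.09. RAD17, which loads the clamp, gave 894 and 908 counts against 856 and 929 (log2 fold change 0.02, SE 0.06, overlapping groups). RHNO1, a protein that links the clamp to TOPBP1, had 1354 and 1256 counts against 1519 and 1790 and rose 1.30-fold (adjusted p 0.000118). The 3 clamp subunits therefore had estimates between 0.09 and 0.67, all below the 2-fold line.

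Of the 3 checkpoint effector kinases, CHEK1 and CHEK2 were called higher (66.7%, against 8.86% of all genes) and HIPK2 was not. CHEK1 (ENSG00000149554.12_3, chromosome 11, 125495058 to 125546150, plus strand) had 279 and 224 counts in LNCaP95 against 797 and 967 in LN95(KO). The level went from 13.7 ± 2.04 CPM to 49.0 ± 5.63 CPM (log2 fold change 1.84, SE 0.10, edgeR adjusted p 7.04e-11). CHEK2 (ENSG00000183765.21_4, chromosome 22, 29083731 to 29138410, minus strand), the main target of ATM, had 146 and 134 counts against 434 and 554, and 7.61 ± 0.420 CPM against 27.4 ± 4.13 CPM. Its log2 fold change was 1.85 (SE 0.12, edgeR adjusted p 5.22e-10), within 1 standard error of that of CHEK1.

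The ratio of each effector to its own apical kinase followed from these values. Per kilobase of the canonical transcript, CHEK1 stood at 1.39 and 1.10 times ATR in the LNCaP95 libraries and at 3.82 and 4.50 times ATR in the LN95(KO) libraries. CHEK2 stood at 2.04 and 1.78 times ATM and at 5.30 and 7.68 times ATM. Neither ratio overlapped between the groups, where the CPM of 79.8% of all genes did not overlap either, and neither ratio was tested. HIPK2, a nuclear kinase of the damage response, had 2658 and 2643 counts against 4979 and 4700. It rose 1.87-fold (log2 fold change 0.90, SE 0.05, adjusted p 1.38e-10) and so stayed short of a call despite a tight estimate.

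At broken chromatin, H2AX and MDC1 were called higher (2 of 7, 28.6%, against 8.86% of all genes). Another 3 genes rose by less than 2-fold, SHLD1 fell and TP53BP1 did not pass. H2AX (ENSG00000188486.3_3, a gene of 1 exon on chromosome 11, 118964584 to 118966175, minus strand), the histone variant that ATM, ATR and DNA-PK phosphorylate around a break, had 1143 and 1112 counts in LNCaP95 against 3689 and 4717 in LN95(KO). The level rose from 61.3 ± 0.859 CPM to 233 ± 35.4 CPM (log2 fold change 1.93, SE 0.10, adjusted p 1.16e-07, edgeR), and per kilobase it went from 38.5 to 147 CPM. H2AX also makes a transcript without a poly(A) tail, which oligo(dT) selection does not retain, so these counts refer to the polyadenylated form.

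MDC1 (chromosome 6, 30667584 to 30685224, minus strand), the scaffold that binds phosphorylated H2AX, was close to the limit of detection with 3 and 5 counts in LNCaP95 against 20 and 30 in LN95(KO). The log2 fold change of 2.64 had the largest standard error of the 34 genes (0.47, adjusted p 0.000106), and it ranged from 2.32 to 3.04 when single libraries were left out. MDC1 had 58 reads over the 4 libraries, and of the 33 other protein-coding genes within 500000 bases of it 32 (97%) had under 30 reads and 0 passed the filter, where 36.3% of all protein-coding genes had under 30 reads. TUBB, a tubulin gene in that window, had 4 reads in all. The region as a whole was thus barely counted in these files, the cause was not tested, and the level of MDC1 is uncertain in both groups.

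The factors that shield broken ends from resection stayed within a 2-fold change. TP53BP1, which binds ubiquitinated and methylated nucleosomes near breaks, had 412 and 453 counts against 409 and 438, a log2 fold change of 0.00 (SE 0.09, edgeR adjusted p 0.986) with overlapping groups. RIF1, its effector, had 560 and 585 counts against 675 and 742 and rose 1.27-fold (adjusted p 0.000753). In the shieldin complex the subunits differed in direction: SHLD1 fell from 99 and 80 counts to 54 and 54, a 1.62-fold lower level (log2 fold change -0.69, SE 0.19, adjusted p 0.00433), while SHLD2 (528 and 576 against 624 and 618 counts) rose 1.15-fold and MAD2L2, also a subunit of a translesion polymerase, rose 1.39-fold (1144 and 1070 against 1385 and 1629 counts, adjusted p 1.07e-05). The adjusted p of SHLD1 was 0.068 without LNCaP95 replicate 1 and 0.108 in DESeq2. That of SHLD2 was 0.307 without LNCaP95 replicate 1, 0.103 without LN95(KO) replicate 3 and 0.231 in DESeq2.

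Of the ubiquitin enzymes and recruiters, RAD18 was called higher, WRAP53 and RNF168 rose by less than 2-fold, and RNF8 and USP1 did not pass. RAD18 (chromosome 3, 8817088 to 9005457, minus strand), the ligase that marks PCNA at stalled forks, had 286 and 346 counts in LNCaP95 against 619 and 673 in LN95(KO). Its level went from 17.2 ± 2.40 CPM to 35.9 ± 1.35 CPM (log2 fold change 1.06, SE 0.09, edgeR adjusted p 3.1e-08). This call sat at the 2-fold line: the log2 fold change was 0.92 without LNCaP95 replicate 1, and glmTreat gave an adjusted p of 0.652. USP1, which takes the mark of RAD18 off PCNA, had 1602 and 1442 counts against 1374 and 1493, overlapping groups and a log2 fold change of -0.05 (SE 0.06, edgeR adjusted p 0.468).

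RNF8 and RNF168 act in sequence to ubiquitinate histones at breaks. RNF8 had 299 and 307 counts against 335 and 352, and its estimate of 0.21 (SE 0.09) missed the threshold with an adjusted p of 0.0578, which was 0.0193 with library totals in place of TMM factors. RNF168 had 501 and 483 counts against 534 and 579, and the same estimate of 0.21 (SE 0.08) passed with an adjusted p of 0.0275, which became 0.0884 and 0.163 without LNCaP95 replicates 1 and 2, 0.1 without LN95(KO) replicate 4 and 0.232 in DESeq2. WRAP53, which helps bring RNF8 to breaks and is better known as a Cajal body and telomerase factor, had 371 and 398 counts against 508 and 621 and rose 1.50-fold (adjusted p 3.72e-05).

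The CDC25 phosphatases and the WEE1-type kinases were the role group with the highest median among the 34 members, 2.27 on the log2 scale. Of these genes 5 of 5 were called higher, where 8.86% of all genes were. The 3 phosphatases act on cyclin-dependent kinases at the start of S phase (CDC25A) and at entry into mitosis (CDC25B and CDC25C). CDC25A (ENSG00000164045.11_3, chromosome 3, 48198636 to 48229907, minus strand) had 135 and 112 counts in LNCaP95 against 288 and 323 in LN95(KO). Its level rose from 6.71 ± 0.848 CPM to 17.0 ± 1.01 CPM (log2 fold change 1.34, SE 0.12, adjusted p 5.7e-08, edgeR).

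CDC25B (ENSG00000101224.17_4, chromosome 20, 3767419 to 3786768, plus strand) had 123 and 131 counts against 603 and 599. The replicates of each group nearly coincided, at 6.91 ± 0.345 CPM and 33.4 ± 0.881 CPM, for a log2 fold change of 2.27 (SE 0.10, edgeR adjusted p 2.92e-12). CDC25C (ENSG00000158402.19_5, chromosome 5, 137620958 to 137674044, minus strand) had 54 and 64 counts against 506 and 562. Its level rose 9.24-fold, from 3.21 ± 0.402 CPM to 29.7 ± 1.56 CPM (log2 fold change 3.21, SE 0.12, adjusted p 5.01e-13).

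The opposing kinases rose in the same libraries. WEE1 (ENSG00000166483.10_3, chromosome 11, 9595217 to 9615004, plus strand), the nuclear kinase, had 425 and 417 counts against 1064 and 1083, and 22.9 ± 0.183 CPM against 59.7 ± 0.544 CPM. The log2 fold change of 1.38 (SE 0.07, edgeR adjusted p 1.79e-11) moved only between 1.37 and 1.39 when libraries were left out. PKMYT1 (ENSG00000127564.16_4, chromosome 16, 3018025 to 3030480, minus strand), the membrane-bound kinase, had 46 and 39 counts against 460 and 572. Its log2 fold change of 3.63 was the largest of the 34 genes (SE 0.15, edgeR adjusted p 8.87e-13), a rise from 2.31 ± 0.257 CPM to 28.7 ± 3.79 CPM. PKMYT1 shares 31.9% of its exon bases with other genes, and reads in the shared part were left out as ambiguous. PAQR4, which shares the most, had 108 and 98 counts against 177 and 213 and a smaller log2 fold change of 0.95.

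The ratios between genes of a family differed between the groups. Per kilobase, CDC25C stood at 0.654 and 0.728 times CDC25B in LNCaP95 and at 1.25 and 1.40 times CDC25B in LN95(KO), while CDC25A went from 0.891 and 0.694 to 0.388 and 0.438 times CDC25B. CDC25C over CDC25A went from 0.735 and 1.05 to 3.23 and 3.20. PKMYT1 stood at 0.188 and 0.163 times WEE1 in the parental libraries and at 0.753 and 0.919 times WEE1 in the knockout libraries. Reads in the shared 31.9% of PKMYT1 exon bases were left out while its full length was used (4.49% are shared for WEE1). Its level per kilobase, and the kinase sum below, may therefore be too low in all libraries. None of the 4 ratios overlapped between the groups, where the CPM of 79.8% of all genes did not overlap either, and none was tested. The phosphatases summed to 5.44 and 5.55 CPM per kilobase in LNCaP95 and 28.8 and 29.8 in LN95(KO), and the kinases that oppose them to 7.63 and 7.38 and to 29.4 and 31.7, so phosphatase and kinase transcripts rose side by side.

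**Figure D4:**
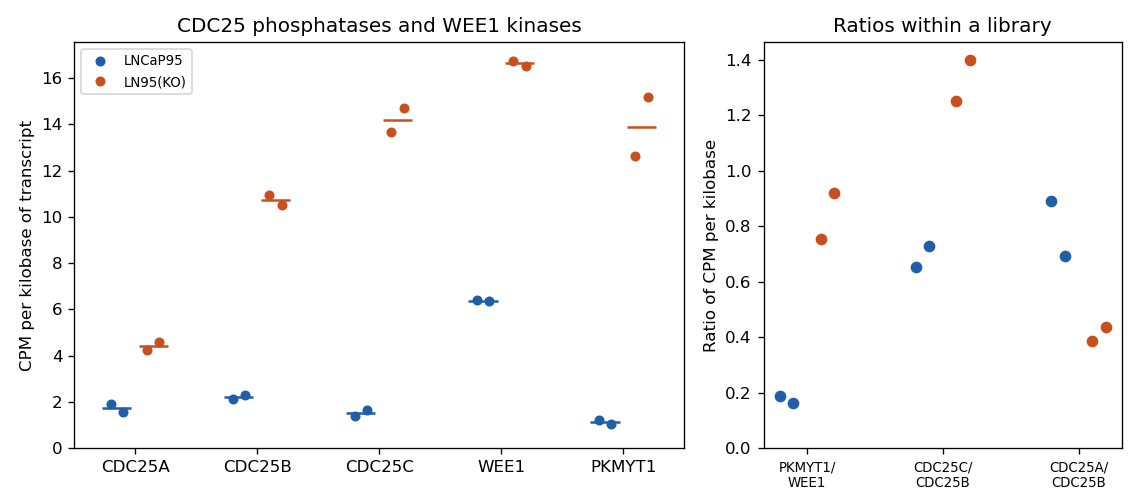
Left, CPM per kilobase of canonical transcript of the CDC25 phosphatases and WEE1-type kinases in each library (blue LNCaP95, orange LN95(KO), horizontal lines are group means, 2 libraries per group). PKMYT1 may be too low in all libraries, since reads in its shared exon bases were left out. Right, ratios of these levels within each library: PKMYT1 over WEE1 went from 0.188 and 0.163 to 0.753 and 0.919, and CDC25A over CDC25B from 0.891 and 0.694 to 0.388 and 0.438.

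Promoters of the members, called or not, were searched for 3 sequence elements of cell cycle genes, in the stretch from 250 bases before to 50 bases after each start site in RefSeq (GRCh38.p14), on both strands. The elements were the CHR (TTTGAA or TTCGAA), bound by MuvB complexes at many G2/M genes, the E2F element (TTTCCCGC, TTTCGCGC, TTTGCCGC or TTTGGCGC), and the CCAAT box (CCAAT), bound by NF-Y. The palindrome TTCGAA was counted once, and matches of different elements could overlap elsewhere but do not in the stretches printed. RefSeq promoters were matched for 27 of the 34 members, 10 of them called higher. The stretches below show the elements in 5 called genes, with matches in capitals.

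CDC25A: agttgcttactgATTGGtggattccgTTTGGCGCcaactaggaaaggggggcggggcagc
CDC25B: ctgctgttatttTTCGAAtatataaggagg
CDC25C: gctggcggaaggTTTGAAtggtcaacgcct
CLSPN: actctggctggGCGGGAAAgcaagaacagc
H2AX: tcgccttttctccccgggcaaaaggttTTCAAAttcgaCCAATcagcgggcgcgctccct

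In CDC25A (chr3:48188428-48188487, minus strand), an E2F match began at base -44 from the start site and a CCAAT box read on the other strand at -58. CDC25B (chr20:3796260-3796289, plus strand) and CDC25C (chr5:138331817-138331846, minus strand) each held a CHR match, at -38 and -30. Each of these genes has 4 listed starts, and the positions hold only for the start used here. From another listed start of CDC25C, the same match begins at base 44, after the start. CLSPN (chr1:35769965-35769994, minus strand) held an E2F match on the other strand that began at -5 and ran across the start site. H2AX (chr11:119095597-119095656, minus strand) held a CHR match on the other strand at -164 and a CCAAT box at -153. These matches are letters only, and no binding was measured.

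Counted over genes, a CHR match was found in 9 of 27 matched members (33.3%) and in 19.5% of all 27305 genes with a promoter in the table, an E2F match in 4 of 27 (14.8%) against 3.99%, and a CCAAT box in 21 of 27 (77.8%) against 39.7%. Among the 10 matched members that were called higher, 4 (40%) held a CHR, 2 (20%) an E2F and 9 (90%) a CCAAT match. Among the 17 others the counts were 5 (29.4%), 2 (11.8%) and 12 (70.6%). The share was thus higher among the called members for each element, in small groups, and the difference was not tested. Members that were not called also held elements, such as a CHR match in ATM, RAD17 and USP1 and a CCAAT box in TP53BP1. Genes with more than 1 listed start had more sequence searched. Per promoter, the shares were 25% of 44 for CHR, 9.09% for E2F and 63.6% for CCAAT, against 16.4%, 3.31% and 34.6% of 35116.

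Outside the 34 genes, 42 other genes of the pathway were listed by role, and 10 of these (23.8%, against 8.86% of all genes) were called higher and 0 (against 9.13%) lower by edgeR as by DESeq2. At an adjusted p under 0.05 alone, 24 were higher and 8 lower (29.8% and 30.1% of all genes), as they also were by unadjusted p under 0.05, and their median log2 fold change was 0.28. The 4 partner genes for cyclin-dependent and mitotic kinases that the checkpoint restrains, with a cyclin among them, were all called. They were CDK1 (348 and 334 against 2189 and 2755 counts, log2 fold change 2.89, SE 0.09), CCNB1, its cyclin (2.23, SE 0.08), CDK2 (1.59, SE 0.10) and PLK1 (3.24, SE 0.18). The fork factors WDHD1 (1.72, SE 0.11) and DONSON (1.00, SE 0.15) were called, DONSON at the 2-fold line with 0.92 without LN95(KO) replicate 4. Of the 7 genes for RPA and the clamp loader subunits, all 7 passed an adjusted p of 0.05 upwards, and RFC2 (1.05), RFC3 (1.25) and RFC4 (1.36) were called. RFC2 fell short of 2-fold without LNCaP95 replicate 2 (0.95) and without LN95(KO) replicate 4 (0.90).

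The other partner groups of the break response were small, and with 8.86% of all genes called higher a count of 0 in any of them is near the background. None of the 4 genes of the MRN complex and DNA-PK was called, with MRE11 at 0.86 and NBN, which recruits ATM, at -0.16. In the BRCA1-A complex, which reads the ubiquitin chains made by RNF8 and RNF168, 0 of 5 were called, 1 rose and 2 fell at an adjusted p under 0.05, near the shares over all genes, and the median was -0.21. The 9 ubiquitin partners had 0 calls and a median of -0.06, and of SHLD3 and PAXIP1 neither passed. CDKN1A, the cyclin-dependent kinase inhibitor, rose 1.43-fold (2798 and 2763 against 3589 and 4193 counts), and SFN was called on 5 and 2 counts against 22 and 22.

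Libraries were left out singly to see how far each of the 12 calls rested on any of them. For 11 of the 12 genes the log2 fold change stayed above 1 in all 4 omissions, the exception being RAD18. CDC25A stayed between 1.21 and 1.47, CHEK1 between 1.69 and 2.00, CHEK2 between 1.69 and 1.99, H2AX between 1.76 and 2.08, CLSPN between 2.65 and 3.19, CDC25C between 3.08 and 3.34 and PKMYT1 between 3.49 and 3.76. LN95(KO) replicate 4 had the higher CPM of its pair for 10 of these 12 genes and replicate 3 for CDC25B and WEE1. Leaving out replicate 4 gave a log2 fold change of 1.76 for H2AX and leaving out replicate 3 gave 2.08.

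**Figure D5:**
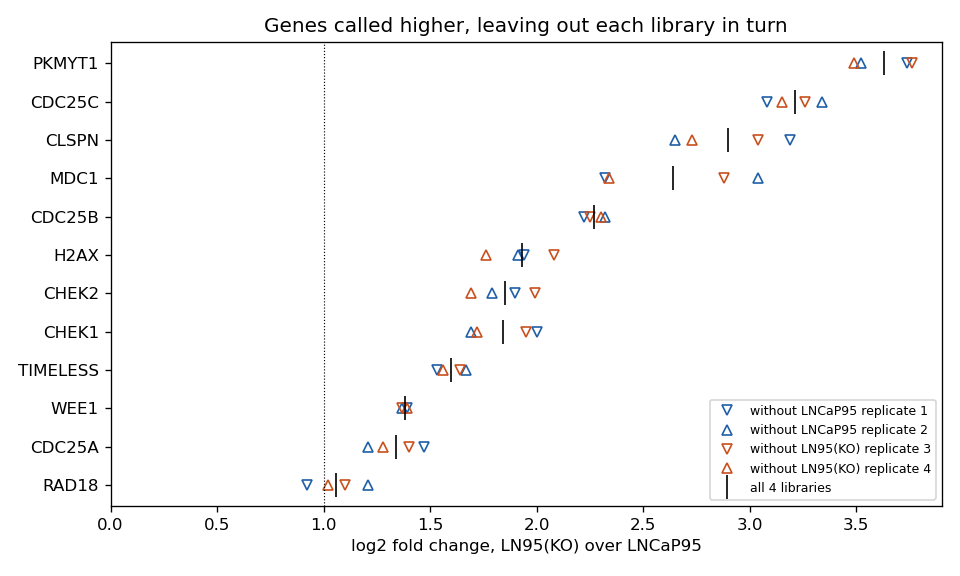
Log2 fold change of LN95(KO) over LNCaP95 for the 12 checkpoint genes called higher, with all 4 libraries (vertical bars) and with each library left out in turn (triangles); the dotted line marks a 2-fold change. RAD18 crosses the line at 0.92 without LNCaP95 replicate 1, and the other 11 genes stay to its right.

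In GENCODE release 44, 9 of the 34 genes share over 10% of their exon bases with other annotated genes on either strand. Reads over more than 1 gene of release 29 were left out of the counts, and for CHEK1 (13.4%) the gene that shares the most bases has no row in the count table. The 9 also include KAT5 (38.6%), PKMYT1 (31.9%), TP53BP1 (28.8%, TUBGCP4 sharing the most), ATRIP (26.7%) and TIPIN (21.1%). Among these 9 genes, 2 (22.2%, against 8.86% of all genes) were called higher and the median log2 fold change was 0.38. Among the 25 members that share less, 10 (40.0%) were called higher and the median was 0.67.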

How the data were processed

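RNA-Seq libraries (poly(A) RNA selected with oligo(dT), DNBseq) came from LNCaP95 and LN95(KO) cells, 2 per group, grouped by their titles. Per gene, the deposited files hold raw counts. The authors mapped reads with hisat2 (version 2.1.0) to the hg19 genome and used htseq with GENCODE release 29 for counting, without strand. Reads over more than 1 gene are dropped by htseq as ambiguous (9.82% to 10.4% of entries), which lowers genes that overlap others. Reads that align to several places, as from near-identical copies, are a separate class whose share is not given here. The series table and the single files differed in 0 cells, and the 5 summary lines were kept out of library sizes. Of the identifiers, 59899 matched a symbol.

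Differences were tested with edgeR (version 4.0.16, R 4.3.3; quasi-likelihood, robust, TMM factors, no covariate) on all genes kept by filterByExpr (minimum count 10, total 15), with Benjamini-Hochberg adjustment over 15626 genes. A call needed an adjusted p under 0.05 and a fold over 2. The standard error is the absolute log2 fold change over the square root of F. CPM is given as mean ± SD. DESeq2 (version 1.42.0), RLE, upper quartile and total scaling, other filters, glmTreat, and omission of each library were the alternatives. Steps were tested on simulated data. Lengths, coordinates and shared exon bases came from GENCODE release 44 on GRCh37, with the canonical transcript per gene, and promoters from RefSeq on GRCh38.p14. Phase lists came from Seurat (version 5.3.0).

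The members, role groups, partner and marker lists were chosen with earlier results of these data known, so no list test was made. Every member is named, with counts per library for called genes and for the gene of each role group with the smallest adjusted p, and the partners named are those called or in a short role group. TREX1, RNASEH2C, PAQR4, TUBGCP4 and TUBB were chosen after their overlap or position was known. The partners MRE11, NBN and CDKN1A and the markers ENO2, SYP, INSM1, COL1A1 and LUM were chosen after their values were seen. Protein sequences were not analysed here, and 1 partner gene is not reported here.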

Additional observations from a re-analysis of the deposited data

Results flagged for a closer look

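The share of entries that did not align was higher in both LN95(KO) libraries, 8.05% and 7.71%, than in both LNCaP95 libraries, 3.85% and 3.96%. It was singled out because it lies outside the gene counts and the lowest LN95(KO) value, 7.71%, is above the control libraries. Its part in the checkpoint gene results was not tested.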

How the results depend on the processing

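The count of 12 members called higher was 12 with RLE factors, library totals, upper quartile factors, both other filters and DESeq2, 11 with glmTreat and 11 to 12 with a library left out. It was 10 without members on the phase lists, 10 without members that share over 10% of exon bases, and 11 for members with a mean of at least 50 counts, an alternative chosen after seeing the data that drops MDC1. Without the fold criterion, 24 members were higher and 2 lower, and 24 partners were higher and 8 lower. The count of partners called higher, 10, ranged from 8 to 11. The median of 0.43 ranged from 0.39 to 0.48 over tools, scalings and filters and from 0.36 to 0.52 with a library left out, and it was 0.67 without the members that share exon bases. The sign turned in 4 genes near 0: RAD17 (-0.02 with upper quartile factors, -0.02 to 0.05 with a library left out), TP53BP1 (-0.04 with upper quartile factors, -0.0039 with no filter, -0.00011 in DESeq2, -0.07 to 0.08 with a library left out), USP1 (0.0015 with library totals, -0.13 to 0.01 with a library left out) and ATM (-0.01 to 0.21 with a library left out). RAD18 lost its call with glmTreat and without LNCaP95 replicate 1. Scalings moved the median of all genes by at most 0.055 on the log2 scale. Genes with few reads (MDC1, CLSPN, SFN) are those whose values depth limits. No paired analysis was possible because LNCaP95 has replicates 1 and 2 while LN95(KO) has replicates 3 and 4.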
